A study of Mus musculus with 6 samples.

Results

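The 52 genes here are cytokines, chemokines, receptors for cytokines or bacterial products, and the transcription factors, inhibitors and adhesion molecules of the NF-kB pathway. They were taken by symbol for their known roles, with no threshold on expression, but with earlier results of these data known. All 52 had a row among the 21367 genes of the deposited table. They fell into 13 cytokines, 19 chemokines, 8 receptors and adaptors (7 receptors and Myd88), and 12 NF-kB factors, target genes and adhesion molecules. Kidney mRNA was sequenced from 3 Ptpn6+/mev mice and 3 wild-type littermates on a C57BL/6 background, with 1 library for each mouse. Ptpn6 encodes SHP-1, a tyrosine phosphatase found mainly in blood cells that dampens receptor signalling. Within the kidney cortex, earlier work by the authors placed SHP-1 mostly in tubular epithelial cells rather than macrophages. The mev (viable motheaten) allele has a T-to-A change at a splice site, and the Ptpn6+/mev mice carried it in all cells beside a normal copy. Mice of both groups were 7 weeks old, lost the right kidney, and had the left pedicle clamped for 34 min followed by 24 h of reperfusion, so every kidney was injured by renal ischemia and reperfusion (IRI). Kidneys without ischemia were not analysed here, and the comparison asks whether inflammatory transcripts differed between genotypes after injury, not how injury changed them. RNA came from left kidney tissue as a whole, so fewer cells of a type and less RNA per cell cannot be told apart.

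NF-kB dimers of Rela, Relb, Nfkb1 and Nfkb2 are held inactive in the cytoplasm by inhibitors such as Nfkbia. Toll-like receptors, the interleukin 1 receptor and TNF receptors free them through kinases and adaptors, Myd88 among them for the Toll-like and interleukin 1 receptors, and the dimers then bind kB sites in DNA and induce cytokines, chemokines, adhesion molecules and their own inhibitors Nfkbia and Tnfaip3. In the ischemic kidney, injured tubules, endothelium and resident macrophages are known to release chemokines that draw neutrophils and monocytes, which leave the blood by binding Icam1 and Vcam1.

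Total counts lay between 10271590 and 12361745 per library. Wild-type replicate 2 stood apart, with the lowest value of the 6 kidneys in 42.7% of the 13036 tested genes. Its summed FPKM (fragments scaled to transcript length and to library size) of 8 fibroblast and pericyte markers was 97.7, against 309 to 387 in the other kidneys, and that of 10 endothelial markers was 138, against 313 to 357. The 12 macrophage markers, all tested, summed to 217 to 338 in Ptpn6+/mev and 177 to 307 in wild-type kidneys, and 0 of them had an unadjusted p under 0.05. The neutrophil markers, of which Mpo and Elane were at 0 in 5 of 6 kidneys, summed to 26.9 to 62.8 and 27.4 to 49.7 FPKM, with 6 of 12 under the filter on low counts, and the 12 T and NK cell markers, none of which passed that filter, summed to 0.57 to 2.97 and 1.78 to 4.69. Proximal tubule markers were present in every kidney, and their sum was 937 to 1033 FPKM in the Ptpn6+/mev kidneys and 1186 to 1341 in the wild-type kidneys. Ptpn6 itself gave 11.8, 14.7 and 13.6 FPKM in the Ptpn6+/mev kidneys and 17.5, 10.9 and 15.4 FPKM in the wild-type kidneys, with a log2 fold change of -0.19 ± 0.17 (SE) and an adjusted p of 0.715 by edgeR's quasi-likelihood test. Without wild-type replicate 2 that log2 fold change was -0.34 (adjusted p = 0.201), and without wild-type replicate 1 it was -0.06. The mev change acts on splicing, so the level of the gene does not check the genotype labels.

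None of these genes passed an FDR of 0.05, while 10 of them, among them the cytokine Lif, the inhibitor Nfkbia and the adhesion molecule Vcam1, had an unadjusted p under 0.05. Of the 52 genes, 41 had enough counts to be tested, and 0 were higher and 0 lower in Ptpn6+/mev kidneys at an FDR under 0.05 by edgeR's quasi-likelihood test with Benjamini-Hochberg adjustment over all tested genes. Over the whole table that rule called 0.069% of genes higher and 0.069% lower. At an unadjusted p under 0.05, 6 of the 41 were higher (Vcam1, Tlr4, Ccl9, Cxcl2, Tnfaip3 and Nfkbia), where 5.53% of all tested genes were, and 4 were lower (Lif, Ccl20, Il18 and Icam1), where 6.71% were. The same 6 genes had FPKM in every Ptpn6+/mev kidney above every wild-type kidney, beside 14% of all tested genes, and 3 (Lif, Ccl20 and Il18) were below, beside 6.38%. In CPM (counts scaled to library size, with TMM factors), 6 were above and 4 below, with Icam1 added, beside 9.64% and 9.8% of all tested genes. In the fit, Ptpn6+/mev minus wild-type, the median log2 fold change was -0.05 over the 41 tested genes and -0.0024 over all tested genes.

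Other tests called up to 3 of these genes. DESeq2's Wald test put Vcam1 and Nfkbia higher and Lif lower at an FDR under 0.05, where it called 1.01% of all genes higher and 1.7% lower. The exact test of edgeR put Vcam1 higher and Lif lower, where it called 1.21% and 1.78%. Without wild-type replicate 2, 5 genes were higher and 9 lower at an unadjusted p under 0.05, beside 8.36% and 8.89% of all tested genes, and again 0 passed an FDR of 0.05. Cxcl2 was no longer among those higher. Those 9 were Icam1, Il18, Lif and Ccl20 as before, and in addition Cxcl12, Cx3cl1, Il33, Cxcl14 and Tnfrsf1a. Without wild-type replicate 3, 5 were higher and 2 lower, beside 5.92% and 8.17%. Of the 10 genes with an unadjusted p under 0.05 in the fit of all 6 kidneys, 6 (Vcam1, Tlr4, Nfkbia, Ccl9, Lif and Ccl20) kept it whichever kidney was left out, as did 674 of the 1596 genes of the whole table with such a p (42.2%), and the 2 shares were not tested against each other.

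**Figure D1:**
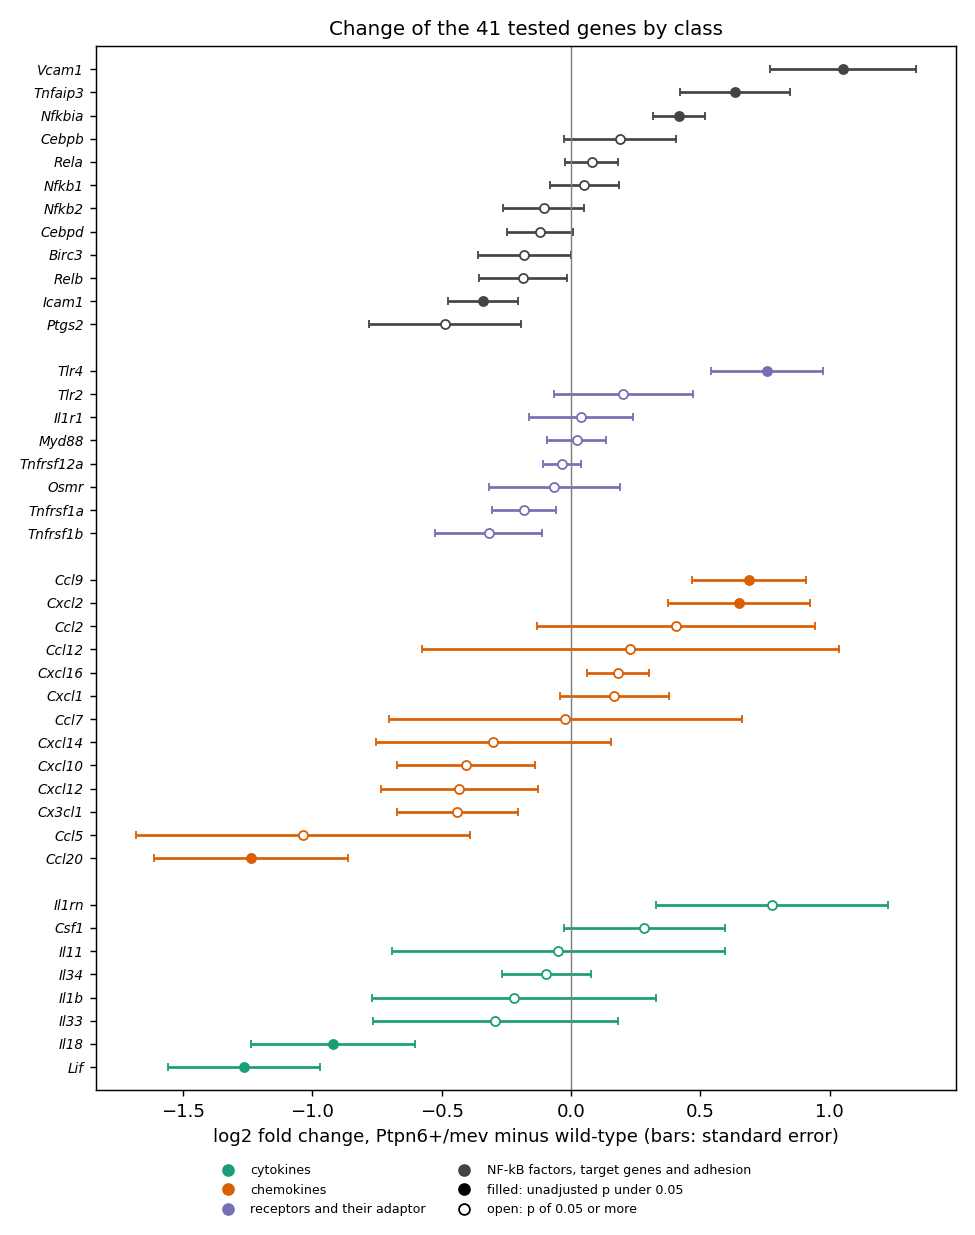
Log2 fold change (Ptpn6+/mev minus wild-type, horizontal axis) of the 41 tested genes by class, with bars for the standard error and filled points for an unadjusted p under 0.05. The filled points lie on both sides of 0, from -1.26 for Lif to 1.05 for Vcam1.

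The kB sites in front of these genes are shown because several of the genes that differed most carry them close to their start. The consensus searched was the 10-base kB motif (GGG, a purine, any pair of bases, a pair of pyrimidines, then CC) read on both strands of the 250 bases before each RefSeq start (GRCm38.p6). It occurred before 13 of the 39 genes of the list that had a promoter in the table, and before 8.23% of 27025 genes with such a promoter, or 7.25% of 32851 promoters. Its presence is a description, since NF-kB target genes were among the reasons for choosing the list. Among the 4 genes with a promoter that were higher at an unadjusted p under 0.05, it stood before all 4 (Ccl9, Cxcl2, Nfkbia and Tnfaip3), and among the 4 lower it stood before 2 (Lif and Ccl20). The table had no entry for the other 13, Tlr4 and Vcam1 among them. Each window gives the gene's own strand, 5′ to 3′, with the motif in capitals and up to 25 bases on either side. Lif matched on its own strand, Cxcl2 on both, and the other 4 on the opposite strand, so that their capitals show the reverse complement of the consensus. The windows lie at chr11:83578637-83578696, minus strand (Ccl9), at chr5:90903777-90903837, plus strand (Cxcl2), at chr12:55492648-55492701, minus strand (Nfkbia), at chr10:19015411-19015447, minus strand (Tnfaip3), at chr11:4257365-4257424, plus strand (Lif), and at chr1:83116661-83116720, plus strand (Ccl20).
Ccl9: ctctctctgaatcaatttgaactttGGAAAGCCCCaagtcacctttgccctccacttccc
Cxcl2: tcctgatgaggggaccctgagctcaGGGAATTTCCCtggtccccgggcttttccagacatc
Nfkbia: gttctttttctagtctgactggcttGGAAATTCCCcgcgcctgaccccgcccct
Tnfaip3: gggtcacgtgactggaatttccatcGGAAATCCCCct
Lif: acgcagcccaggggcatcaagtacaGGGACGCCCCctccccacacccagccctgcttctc
Ccl20: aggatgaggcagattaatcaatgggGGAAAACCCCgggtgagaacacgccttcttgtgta
The motif of Nfkbia began 29 bases before the RefSeq start, that of Ccl9 35 bases and that of Tnfaip3 12 bases before it. For Tnfaip3 that RefSeq start and the window lie inside the GENCODE span of the gene (chr10:19000910-19015657). The bases before another RefSeq start of Tnfaip3 held no match. In Cxcl2 overlapping matches on both strands spanned 11 bases, beginning 97 bases before the start. A further match of Tnfaip3, beginning 125 bases before the start, overlapped an annotated exon and is not shown. Ccl20 had its match 80 bases and Lif 178 bases before the start. Genes with higher and genes with lower values in Ptpn6+/mev kidneys both held the motif, and no binding was measured.

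Among the cytokines, Lif and Il18 were lower in Ptpn6+/mev kidneys at an unadjusted p under 0.05, beside 6.71% of all tested genes. None was higher at that p, beside 5.53%. Of the 13, 8 were tested, with a median log2 fold change of -0.16, 2 above 0 and 6 below. That median was -0.55 without wild-type replicate 2 and 0.20 without wild-type replicate 3. Lif (ENSMUSG00000034394, chr11:4257557-4272514), a cytokine of the interleukin 6 family that signals through STAT3, had 1.86, 4.81 and 3.23 FPKM in the Ptpn6+/mev kidneys and 6.93, 7.35 and 8.68 FPKM in the wild-type kidneys. All 3 Ptpn6+/mev kidneys were below all 3 wild-type kidneys, and Ptpn6+/mev replicate 1 was the lowest. Its mean was 3.30 ± 1.48 against 7.65 ± 0.91 FPKM (SD, n = 3 each), a log2 fold change of -1.26 ± 0.30 (SE), with an adjusted p of 0.137 by edgeR's quasi-likelihood test. For Lif the exact test gave an adjusted p of 0.00497 and DESeq2 gave 0.00239. Over the 6 fits that left out a kidney its log2 fold change ran from -1.64 to -0.99. Its receptor gene Lifr had a log2 fold change of -0.14 ± 0.10, from 8.62, 8.76 and 9.01 FPKM in Ptpn6+/mev and 8.19, 8.57 and 10.8 FPKM in wild-type kidneys. Il18 (ENSMUSG00000039217, chr9:50554827-50581840), an inflammasome-processed cytokine of the interleukin 1 family, had 1.32, 0.98 and 1.58 FPKM in the Ptpn6+/mev kidneys and 2.10, 2.38 and 2.56 FPKM in the wild-type kidneys. The groups did not overlap, but the values rest on few counts, 12, 9 and 15 and 20, 23 and 28. The log2 fold change of Il18 was -0.92 ± 0.32 (adjusted p = 0.295, quasi-likelihood test).

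The most abundant cytokines were Il34 and Csf1, both ligands of the macrophage receptor Csf1r. Il34 (chr8:110741829-110805924) had 52.5, 51.6 and 67.9 FPKM in the Ptpn6+/mev kidneys and 53.6, 69.3 and 51.02 FPKM in the wild-type kidneys, the 4th highest mean FPKM of the 52 genes. Ptpn6+/mev replicate 3 and wild-type replicate 2 were its highest kidneys and the groups overlapped, with a log2 fold change of -0.10 ± 0.17 (adjusted p = 0.889, quasi-likelihood test). Csf1 (chr3:107741048-107760469) had 19.6, 25.7 and 25.3 FPKM in the Ptpn6+/mev kidneys and 23.5, 8.74 and 25.8 FPKM in the wild-type kidneys. Wild-type replicate 2 alone was low for Csf1, and without it the log2 fold change moved from 0.28 ± 0.31 to -0.04. The remaining tested cytokines had overlapping groups. Il1b, the interleukin 1 beta gene, ran from 2.21 to 10.6 FPKM and both extremes were wild-type kidneys. Il1rn, which blocks the interleukin 1 receptor, had 7.77, 21.1 and 12.6 FPKM in the Ptpn6+/mev kidneys and 10.4, 4.03 and 9.91 FPKM in the wild-type kidneys, with a log2 fold change of 0.78 ± 0.45 and an adjusted p of 0.558 by the quasi-likelihood test. That log2 fold change was 0.22 without Ptpn6+/mev replicate 2, 0.51 without wild-type replicate 2 and 1.11 without Ptpn6+/mev replicate 1, the only 1 of the 6 fits leaving out a kidney in which its unadjusted p was under 0.05. Il11 and the alarmin Il33 were lowest in wild-type replicate 2, at 1.07 and 2.43 FPKM. For Il33 the log2 fold change was -0.29 ± 0.47 with it and -0.72 (adjusted p = 0.103, quasi-likelihood test) without it.

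**Figure D2:**
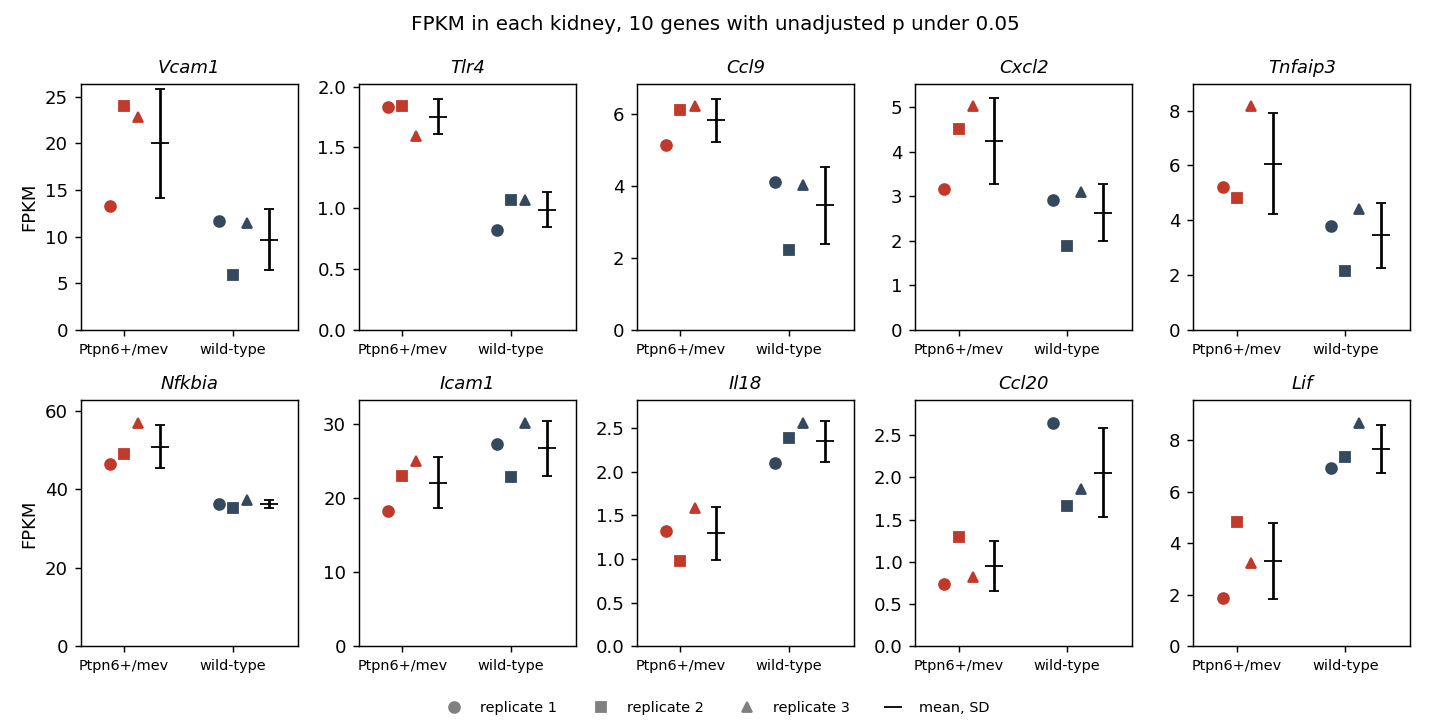
FPKM (vertical axes, each from 0) of the 10 genes with an unadjusted p under 0.05 in each Ptpn6+/mev kidney (red) and wild-type kidney (dark), with the marker shape giving the replicate and black bars the mean and SD of 3. Groups do not overlap for any gene except Icam1, and wild-type replicate 2 is the lowest kidney for Vcam1, Ccl9, Cxcl2, Tnfaip3 and Nfkbia.

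No chemokine passed an FDR of 0.05. At an unadjusted p under 0.05, 2 of the 13 tested (Ccl9 and Cxcl2) were higher in Ptpn6+/mev kidneys and 1 (Ccl20) was lower, beside 5.53% and 6.71% of all tested genes. Of the 19, 13 were tested, 6 with a log2 fold change above 0 and 7 below, and their median was -0.02. That median was -0.61 without Ptpn6+/mev replicate 2 and 0.29 without Ptpn6+/mev replicate 1. Ccl9 (ENSMUSG00000019122, chr11:83572919-83578636), a CC chemokine that attracts myeloid cells through Ccr1, had 5.13, 6.11 and 6.22 FPKM in the Ptpn6+/mev kidneys and 4.12, 2.23 and 4.02 FPKM in the wild-type kidneys. Every Ptpn6+/mev kidney was above every wild-type kidney, and wild-type replicate 2 was the lowest. The mean was 5.82 ± 0.60 against 3.46 ± 1.06 FPKM (SD, n = 3 each), and the log2 fold change was 0.69 ± 0.22 with an adjusted p of 0.255 by edgeR's quasi-likelihood test. Without wild-type replicate 2 it was 0.48 (adjusted p = 0.146). Cxcl2 (ENSMUSG00000058427, chr5:90903871-90905938), a neutrophil attractant that acts on Cxcr2, had 3.17, 4.51 and 5.02 FPKM in the Ptpn6+/mev kidneys and 2.91, 1.89 and 3.09 FPKM in the wild-type kidneys. The groups did not overlap, but Ptpn6+/mev replicate 1 lay just above wild-type replicate 3. Its log2 fold change of 0.65 ± 0.27 (adjusted p = 0.389, quasi-likelihood test) became 0.51 with an adjusted p of 0.388 when wild-type replicate 2 was left out, and it kept an unadjusted p under 0.05 only without Ptpn6+/mev replicate 1 among the 6 fits that left out a kidney. It had no such p by DESeq2 or with the replicate block. Its neighbour Cxcl1, which acts on the same receptor and stands in the same cluster of chr5, had 16.2, 22.2 and 21.8 FPKM in the Ptpn6+/mev kidneys and 13.5, 15.3 and 22.2 FPKM in the wild-type kidneys, and its groups overlapped (log2 fold change 0.17 ± 0.21).

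Ccl20 (ENSMUSG00000026166, chr1:83116766-83119167), the ligand of Ccr6 on lymphocytes and dendritic cells, was low in all kidneys, with 0.74, 1.29 and 0.82 FPKM in the Ptpn6+/mev kidneys and 2.65, 1.66 and 1.86 FPKM in the wild-type kidneys. All Ptpn6+/mev kidneys were below all wild-type kidneys, on 6, 11 and 7 counts against 23, 17 and 19. The log2 fold change of Ccl20 was -1.24 ± 0.38 (adjusted p = 0.234, quasi-likelihood test), and it ran from -1.54 to -1.08 when each kidney was left out. The most abundant chemokines were Cx3cl1 and Cxcl16, both made as membrane-bound proteins that can be shed. Cx3cl1 (chr8:94772009-94782427) had 38.5, 65.2 and 48.4 FPKM in the Ptpn6+/mev kidneys and 73.4, 44.1 and 84.3 FPKM in the wild-type kidneys. Its groups overlapped through wild-type replicate 2, and the log2 fold change was -0.44 ± 0.23 (adjusted p = 0.51) with that kidney and -0.65 (adjusted p = 0.0857) without it by the quasi-likelihood test. Cxcl16 (chr11:70453983-70459984) had 42.99, 56.4 and 54.8 FPKM in the Ptpn6+/mev kidneys and 46.7, 40.4 and 42.6 FPKM in the wild-type kidneys, overlapping groups and a log2 fold change of 0.18 ± 0.12. Cxcl12, a stromal ligand of Cxcr4, and Cxcl14 were both lowest in wild-type replicate 2, with log2 fold changes of -0.43 ± 0.30 and -0.30 ± 0.46. Without that kidney these were -0.73 (adjusted p = 0.0545) and -0.69 (adjusted p = 0.207) by the quasi-likelihood test. The summed fibroblast and pericyte markers were low in the same kidney, as given above, and their part in these differences was not tested.

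Of the 4 chemokine genes of 1 cluster on chr11 (82035571 to 82116799), Ccl2, Ccl7 and Ccl12 varied widely within each group. Ccl2, the main ligand of Ccr2, had 5.73, 16.7 and 15.5 FPKM in the Ptpn6+/mev kidneys and 13.1, 2.90 and 11.6 FPKM in the wild-type kidneys. Ptpn6+/mev replicate 1 and wild-type replicate 2 were low and the other 4 kidneys were not, so that the groups overlapped. Ccl7 followed with 1.33, 8.41 and 4.86 FPKM in the Ptpn6+/mev kidneys and 7.61, 1.36 and 5.34 FPKM in the wild-type kidneys, and Ccl12 with 0.90, 9.67 and 3.62 FPKM in the Ptpn6+/mev kidneys and 5.85, 0.85 and 4.96 FPKM in the wild-type kidneys. Their log2 fold changes were 0.41 ± 0.54 for Ccl2, -0.02 ± 0.68 for Ccl7 and 0.23 ± 0.81 for Ccl12, each smaller than its standard error, and all 3 took either sign among the fits that left out a kidney. The 4th gene, Ccl8, was under the filter on low counts, with 1.33, 0.56 and 0.54 FPKM in the Ptpn6+/mev kidneys and 1.09, 0.89 and 0.79 FPKM in the wild-type kidneys. Its highest kidney was Ptpn6+/mev replicate 1, where the other 3 were low. The summed macrophage markers were lowest in the kidneys low for Ccl2, at 217 FPKM in Ptpn6+/mev replicate 1 and 177 in wild-type replicate 2, and whether this bears on the chemokines was not tested. In a neighbouring cluster (83525778 to 83664683), Ccl5, made by T cells and NK cells among others, had 1.64, 2.17 and 4.00 FPKM in the Ptpn6+/mev kidneys and 10.6, 2.73 and 2.27 FPKM in the wild-type kidneys. Wild-type replicate 1 alone was high for Ccl5, and the log2 fold change was -1.04 ± 0.65 (adjusted p = 0.592) by the quasi-likelihood test. Among the fits that left out a kidney, that of Ccl5 ran from -1.49 to -0.03. Wild-type replicate 1 also had the highest sum of T and NK cell markers, 4.69 FPKM, and whether this bears on Ccl5 was not tested. Cxcl10, an interferon-induced ligand of Cxcr3, had 6.39, 14.04 and 9.57 FPKM in the Ptpn6+/mev kidneys and 13.9, 11.3 and 12.7 FPKM in the wild-type kidneys, with overlapping groups.

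Among the 7 receptors and the adaptor Myd88, Tlr4 was higher in Ptpn6+/mev kidneys, and no other had an unadjusted p under 0.05. Of all tested genes, 5.53% were higher and 6.71% lower at that p. All genes of this class were tested, 4 with a log2 fold change above 0 and 4 below, and their median was -0.01. Tlr4 (ENSMUSG00000039005, chr4:66827584-66930284), the receptor for bacterial lipopolysaccharide and for molecules released by damaged cells, had 1.83, 1.84 and 1.59 FPKM in the Ptpn6+/mev kidneys and 0.82, 1.07 and 1.07 FPKM in the wild-type kidneys. All Ptpn6+/mev kidneys were above all wild-type kidneys, and for this gene wild-type replicate 1 and not replicate 2 was the lowest. The mean was 1.75 ± 0.14 against 0.99 ± 0.14 FPKM (SD, n = 3 each), a 1.69-fold difference in the fit (log2 0.76 ± 0.22, adjusted p = 0.207, edgeR's quasi-likelihood test). The log2 value stayed between 0.62 and 0.85 with any kidney left out. Tlr2, which senses bacterial lipoproteins, had 2.64, 4.37 and 4.89 FPKM in the Ptpn6+/mev kidneys and 3.65, 2.32 and 3.93 FPKM in the wild-type kidneys, with overlapping groups. Their shared adaptor Myd88 was at 27.8 ± 1.94 FPKM in Ptpn6+/mev and 26.2 ± 4.19 FPKM in wild-type kidneys.

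Tnfrsf12a (chr17:23675445-23677468), the receptor of the TNF-like cytokine TWEAK, had the highest mean FPKM of all 52 genes. It had 465, 486 and 483 FPKM in the Ptpn6+/mev kidneys and 479, 439.6 and 482 FPKM in the wild-type kidneys. The 6 kidneys lay close together, and the log2 fold change was -0.03 ± 0.07 (adjusted p = 0.908, quasi-likelihood test). Tnfrsf1a (chr6:125349362-125362484), the main TNF receptor, came next with 84.1, 95.5 and 99.9 FPKM in the Ptpn6+/mev kidneys and 97.7, 83.04 and 119.6 FPKM in the wild-type kidneys. Its groups overlapped, and the log2 fold change was -0.18 ± 0.13, or -0.28 (adjusted p = 0.227, quasi-likelihood test) without wild-type replicate 2. The TNF receptor Tnfrsf1b, the interleukin 1 receptor Il1r1 and the oncostatin M receptor Osmr had log2 fold changes of -0.32 ± 0.21, 0.04 ± 0.20 and -0.06 ± 0.25. The ligand gene Tnf stayed between 0.28 and 0.54 FPKM.

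Among NF-kB factors, targets and adhesion molecules, the feedback inhibitors Nfkbia and Tnfaip3 and the adhesion molecule Vcam1 were higher, and Icam1 was lower. These differences had an unadjusted p under 0.05, beside 5.53% of all tested genes higher and 6.71% lower at that p. All 12 were tested, 6 above 0 and 6 below, with a median log2 fold change of -0.03. Vcam1 (ENSMUSG00000027962, chr3:116109949-116129688), which binds integrin alpha4 beta1 on monocytes and lymphocytes, had 13.3, 24.00 and 22.8 FPKM in the Ptpn6+/mev kidneys and 11.7, 5.91 and 11.4 FPKM in the wild-type kidneys. The groups did not overlap, with Ptpn6+/mev replicate 1 close to the upper wild-type kidneys and wild-type replicate 2 far below the rest. Its mean was 20.03 ± 5.85 against 9.68 ± 3.27 FPKM (SD, n = 3 each), a 2.07-fold difference in the fit (log2 1.05 ± 0.28, adjusted p = 0.188, edgeR's quasi-likelihood test). For Vcam1 the adjusted p was 0.018 by the exact test and 0.0118 by DESeq2. Wild-type replicate 2 was also low in endothelial and fibroblast markers, and without it the log2 fold change of Vcam1 was 0.83 with an adjusted p of 0.108 by the quasi-likelihood test. Icam1 (ENSMUSG00000037405, chr9:21015985-21028817), the ligand of beta2 integrins on neutrophils and monocytes, had 18.3, 22.96 and 25.03 FPKM in the Ptpn6+/mev kidneys and 27.3, 22.8 and 30.2 FPKM in the wild-type kidneys. In FPKM wild-type replicate 2 lay within the Ptpn6+/mev range, and the log2 fold change was -0.34 ± 0.13 (adjusted p = 0.353, quasi-likelihood test). The log2 fold changes of Vcam1 and Icam1 had opposite signs. Within the groups, Ptpn6+/mev replicate 1 and wild-type replicate 2 were each the lowest of their group for both genes.

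Nfkbia (ENSMUSG00000021025, chr12:55489410-55492647), the inhibitor IkB-alpha that NF-kB itself induces, had 46.5, 48.9 and 56.99 FPKM in the Ptpn6+/mev kidneys and 36.2, 35.2 and 37.3 FPKM in the wild-type kidneys. The wild-type kidneys lay close together, and all Ptpn6+/mev kidneys were above them. The mean was 50.8 ± 5.48 against 36.3 ± 1.05 FPKM (SD, n = 3 each), with a log2 fold change of 0.42 ± 0.10 (adjusted p = 0.15, edgeR's quasi-likelihood test). It ran from 0.33 to 0.48 with each kidney left out, and DESeq2 gave an adjusted p of 0.0494 against 0.0527 by the exact test. Tnfaip3 (ENSMUSG00000019850, chr10:19000910-19015657), the ubiquitin-editing enzyme A20 that ends NF-kB signalling, had 5.22, 4.81 and 8.17 FPKM in the Ptpn6+/mev kidneys and 3.80, 2.14 and 4.43 FPKM in the wild-type kidneys. Ptpn6+/mev replicate 3 was the highest and wild-type replicate 2 the lowest, and the groups did not overlap. The counts of Tnfaip3, which the fit uses, were 238, 221 and 286 against 182, 104 and 217. In counts Ptpn6+/mev replicate 3 stood out less than in FPKM. Its log2 fold change was 0.63 ± 0.21 (adjusted p = 0.281, quasi-likelihood test) and 0.42 without wild-type replicate 2. The windows of these inhibitors printed above hold the kB motifs nearest to the start of the 6 shown.

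None of the 4 NF-kB subunits had an unadjusted p under 0.05. Rela (chr19:5637483-5648130), the main activating subunit, had 27.6, 30.9 and 29.8 FPKM in the Ptpn6+/mev kidneys and 27.6, 22.5 and 29.8 FPKM in the wild-type kidneys, with a log2 fold change of 0.08 ± 0.10 (adjusted p = 0.829, quasi-likelihood test). The values for Nfkb1, Nfkb2 and Relb were 0.05 ± 0.13, -0.11 ± 0.16 and -0.18 ± 0.17. The antiapoptotic ubiquitin ligase Birc3, at -0.18 ± 0.18, the C/EBP factors Cebpb and Cebpd, at 0.19 ± 0.22 and -0.12 ± 0.13, and cyclooxygenase 2 (Ptgs2), at -0.49 ± 0.29, had overlapping groups. Ptgs2 was scarce, between 0.52 and 1.03 FPKM.

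**Figure D3:**
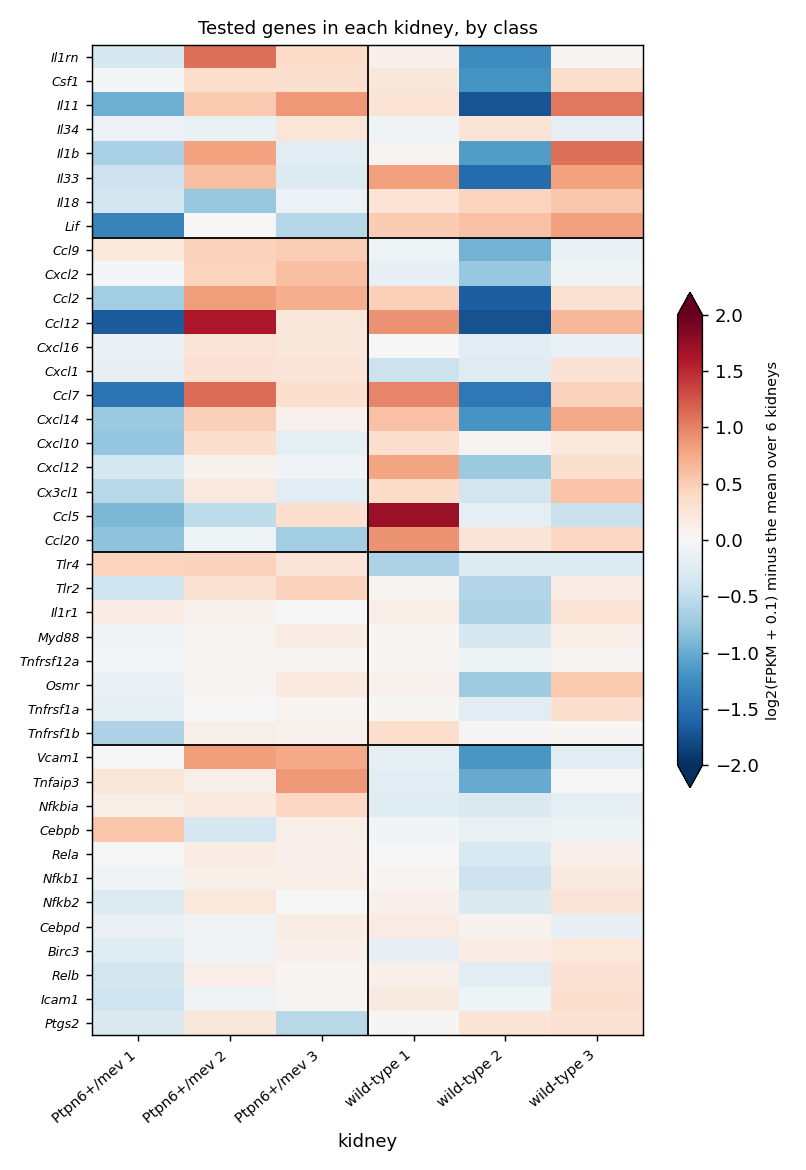
Log2(FPKM + 0.1) of each tested gene (rows, by class, sorted by fold change) in each of the 6 kidneys (columns), minus the mean over the kidneys, from blue (lower) to red (higher). Wild-type replicate 2 is blue for many cytokines and chemokines, Ptpn6+/mev replicate 1 shares low Ccl2, Ccl7 and Ccl12, and wild-type replicate 1 is high for Ccl5.

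Kidneys of the same genotype differed widely for part of these genes. Wild-type replicate 2 had the lowest FPKM for 24 of the 41 tested genes, 58.5%, against 42.7% of all tested genes. Ptpn6+/mev replicate 1 was the lowest for 10, or 24.4% against 13.0% of all tested genes, and wild-type replicate 3 was the highest for 17, or 41.5% against 15.8%. Among wild-type kidneys, 8 of the 41 genes ranged over more than 3-fold, beside 5.65% of all tested genes. They were Ccl12 (6.88-fold), Il11 (7.44-fold), Ccl7, Il33, Il1b, Ccl5, Ccl2 and Cxcl14. Among Ptpn6+/mev kidneys, 3 did, beside 2.06% of all tested genes, with Ccl12 at 10.7-fold, Ccl7 at 6.32-fold and Il11 at 3.71-fold. The median of the mean FPKM was 11.3 over the 41 genes and 10.4 over all tested genes, and 23 of the 41 had a mean of at least 10 FPKM.

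Summed by class, the genotypes overlapped in every class. Cytokines summed to 94.2, 131 and 129 FPKM in the Ptpn6+/mev kidneys and to 120.3, 98.3 and 131 in the wild-type kidneys, where Il34 and Csf1 made up most of the sum. Chemokines summed to 166, 286 and 239 FPKM and to 295, 158 and 288. The low kidneys were again Ptpn6+/mev replicate 1 and wild-type replicate 2, which were also lowest in macrophage and neutrophil markers. Receptors summed to 596, 636 and 639.5 FPKM and to 630.4, 562 and 659, mostly through Tnfrsf12a. NF-kB factors, targets and adhesion molecules summed to 209.9, 239.6 and 254 FPKM and to 215, 183 and 229. Of the 8 marker lists, only the sum of the proximal tubule markers separated the genotypes, with 3 of its 8 genes lower at an unadjusted p under 0.05, where 6.71% of all tested genes were. Of 10 tubular injury markers, 3 were higher (Havcr1, Krt8 and Krt18) and 1 lower (Spp1) at an unadjusted p under 0.05, beside 5.53% and 6.71% of all tested genes. In FPKM, 4 (the same 3 and Vim) had every Ptpn6+/mev kidney above every wild-type kidney, beside 14% of all tested genes. The sum of that list overlapped between genotypes and was made up mostly of Spp1, at 20881 to 25507 FPKM in Ptpn6+/mev and 24406 to 32920 FPKM in wild-type kidneys. Of 8 distal nephron markers, 2 were lower (Slc12a3 and Kl) at that p, beside the same 6.71%. The part of the tubule and injury markers in the differences above was not tested.

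**Figure D4:**
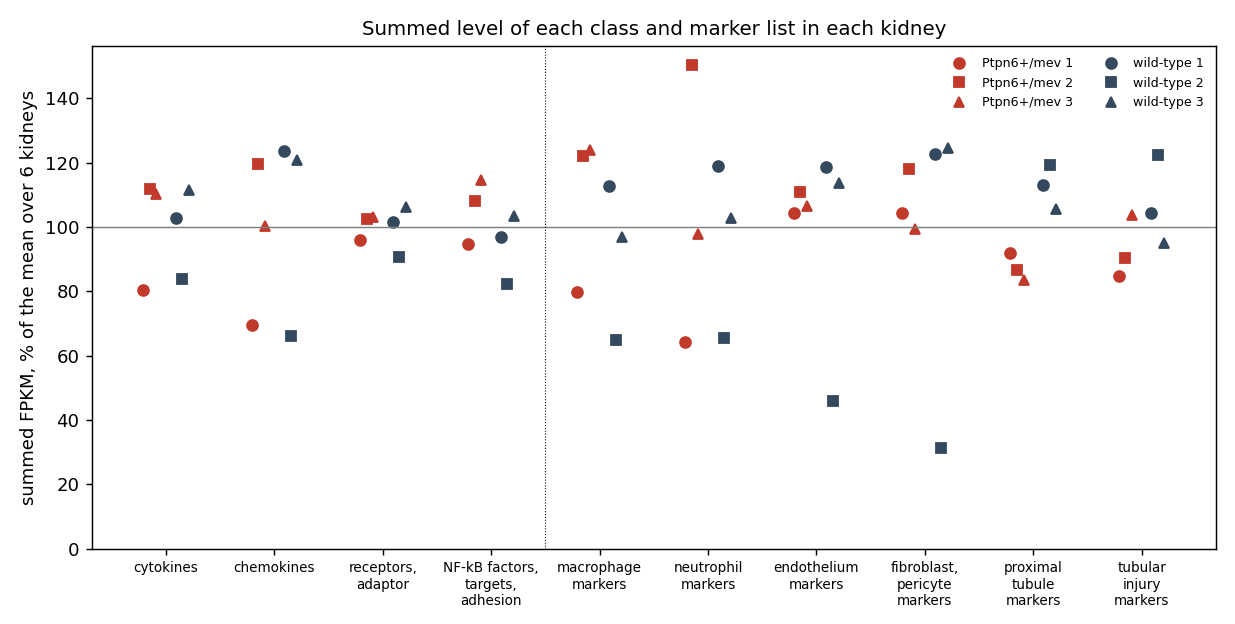
Summed FPKM of each class and of 6 marker lists in each kidney, as a percent of the mean over the 6 kidneys (vertical axis), in red for Ptpn6+/mev and dark for wild-type, with the marker shape giving the replicate. Chemokine sums are lowest in Ptpn6+/mev replicate 1 (69.7%) and wild-type replicate 2 (66.1%), which are also lowest for macrophage and neutrophil markers, and wild-type replicate 2 is at 31.4% for fibroblast and pericyte markers.

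The 11 genes under the filter on low counts include several classical inflammatory cytokines. They were Il1a, Il6, Tnf, Csf2, Csf3, Ccl3, Ccl4, Ccl8, Ccl28, Cxcl5 and Cxcl9, with at most 33 counts and 2.77 FPKM in any kidney. Il6 had 3, 6 and 5 counts in the Ptpn6+/mev kidneys and 7, 2 and 7 in the wild-type kidneys. Tnf had 7, 9 and 9 counts and 6, 5 and 11 counts. These genes were not tested in the filtered fit, and without the filter none of the 11 had an unadjusted p under 0.05 by the quasi-likelihood test. Il1a was counted at 0 in 4 of the 6 kidneys and at 1 in the others, and a count of 0 allows up to 3 counts, or 0.243 to 0.292 CPM at these depths, for counting error only. Cxcl5 was highest in wild-type replicate 1, at 20 counts, and Ccl28 in wild-type replicate 2, at 33 counts.

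Genes of the same pathways outside the list are set beside the 12.2% of all tested genes that had an unadjusted p under 0.05 in either direction. Of 29 NF-kB pathway genes (kinases, TRAF and IRAK proteins, further inhibitors), 0 were higher and 1 was lower at an unadjusted p under 0.05 by the quasi-likelihood test, and their median log2 fold change was -0.01. The 1 was Ikbkg, the regulatory subunit of the IkB kinase, with 42.7, 31.4 and 29.4 FPKM in the Ptpn6+/mev kidneys and 50.2, 42.4 and 41.3 FPKM in the wild-type kidneys. In FPKM the groups of Ikbkg overlapped. Its counts, which the fit uses, were 679, 522 and 655 against 835, 1076 and 913 and ranked the kidneys differently. Its log2 fold change was -0.57 ± 0.16 (adjusted p = 0.208, quasi-likelihood test), and the next smallest p was that of the inhibitor Irak3 (adjusted p = 0.445). Of 15 other NF-kB target genes, 14 were tested, 1 was higher (Plaur, the urokinase receptor, log2 0.31 ± 0.10, adjusted p = 0.274) and 1 lower (Irf1, an interferon regulatory factor, -0.42 ± 0.15, adjusted p = 0.32), both at an unadjusted p under 0.05 by edgeR's quasi-likelihood test. Of 26 receptors for these cytokines and chemokines, 19 were tested and 0 had an unadjusted p under 0.05. Among them, Lifr had an adjusted p of 0.635 by the quasi-likelihood test. In the KEGG pathways of the deposited table, with the 52 genes left out and chosen after the data were seen, 9 of 78 tested genes of TNF signalling (11.5%), 6 of 62 of Toll-like receptor signalling (9.68%), 9 of 117 of chemokine signalling (7.69%), 8 of 116 of cytokine receptor interaction (6.90%) and 2 of 60 of NF-kappa B signalling (3.33%) had an unadjusted p under 0.05. In all these lists 0 genes passed an FDR of 0.05 by edgeR's quasi-likelihood test.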

How the data were processed

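Kidney mRNA of 6 mice was sequenced, with 1 library per mouse. The authors enriched poly-A RNA, sequenced read pairs, aligned them to GRCm38.p5 with TopHat2 and Bowtie2, and estimated expression with Cufflinks. RSEM is also named in the submitters' processing notes, and which tool made the counts is not given in the sources used here. The authors deposited counts, taken here to be expected counts that were not normalized, and FPKM, scaled to transcript length and library size. The KEGG column gave pathway lists, and the Gene Ontology column was not used.

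Groups and replicate numbers came from the sample titles. The deposited counts were rounded (1744 of 21367 genes were fractional, 3 of the described genes among them: Cxcl16, Myd88 and Cebpd). Reads shared between near-identical genes may have been split by the counting. Counts were filtered with filterByExpr, scaled by TMM and tested with edgeR 4.0.16 (quasi-likelihood test, R 4.3.3), with Benjamini-Hochberg adjustment over 13036 genes. Total counts of 10271590 to 12361745 limit precision mainly for genes near 0. Alternatives were DESeq2 1.42.0 (size factors, Wald test), upper quartile scaling, edgeR's exact test, limma 3.58.1 on log2(FPKM + 1) and log2(FPKM + 0.1), 2 other filters, a replicate block, and each library left out. The scripts were tested on simulated data. P-values measure the spread between 3 mice per group.

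Described in full were genes at an FDR or an unadjusted p under 0.05, genes whose groups did not overlap, and the 2 most abundant of each class. Other genes of the list were added after their values were seen, and from each further pathway list the 2 smallest p are given, except 1 gene that is not reported here. Members and lists were chosen with earlier results of these data known. Positions are from GENCODE M21 (GRCm38), found for all 52 genes, and promoters from RefSeq (GRCm38.p6), found for 39. Of 47 promoters of these genes, 42 had their first 20 transcribed bases in a GENCODE transcript.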

Additional observations from a re-analysis of the deposited data

How the results depend on the processing

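At an FDR under 0.05, DESeq2's Wald test called 2 of the genes higher and 1 lower, and edgeR's exact test called 1 higher and 1 lower, against 0 and 0 by the quasi-likelihood test. All other alternatives run, each library left out among them, also gave 0 and 0. At an unadjusted p under 0.05 the number higher ranged from 4 (without Ptpn6+/mev replicate 3, beside 3.45% of all tested genes) to 8 (without Ptpn6+/mev replicate 1, 3.94%), and the number lower from 2 (without wild-type replicate 3, 8.17%) to 9 (without wild-type replicate 2, 8.89%), against 6 (5.53%) and 4 (6.71%). With at least 10 counts in every library, 2 were lower, beside 7.08%, since Ccl20 and Il18 were no longer tested. The median log2 fold change of the chemokines ran from -0.61 (without Ptpn6+/mev replicate 2) to 0.29 (without Ptpn6+/mev replicate 1), against -0.02, and that of the cytokines from -0.55 (without wild-type replicate 2) to 0.20 (without wild-type replicate 3), against -0.16, and the cause was not tested. With the replicate block, 5 genes were higher and 3 lower at an unadjusted p under 0.05, beside 3.97% and 5.24% of all tested genes, and 0 passed the FDR. Same-numbered libraries did not deviate together (correlations of -0.14, -0.18 and -0.13). Paired mice need not deviate together, so this cannot tell whether the numbers pair the mice, which the sources used here do not state. Ccl20, Il18 and the 11 genes under the filter rest on few counts.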
